A study of Homo sapiens with 4 samples.

Results

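The genes described are 10 cytoskeletal genes of dividing human cells. These are the cytoplasmic actins ACTB and ACTG1, the alpha-tubulins TUBA1A, TUBA1B and TUBA1C, the beta-tubulins TUBB, TUBB2A, TUBB2B and TUBB6, and the gamma-tubulin TUBG1. They were picked by gene symbol from the 23615 genes of the deposited table, and all 10 passed the filter on low counts that left 14555 genes to test. RNA recovered in a Flag-SIRT7 immunoprecipitation (RIP, 2 libraries) was set against total input RNA (2 libraries). Every library came from HEK293T, a human embryonic kidney line, stably overexpressing Flag-SIRT7, so RIP and input cells carried the same transgene, and no RIP from cells without the tag was analysed here. The RIP used anti-Flag M2 affinity gel and proteinase K to free the RNA, and ribosomal RNA was removed from RIP and input RNA alike. Nothing in the labels ties the libraries of RIP or of input to separate cultures, so the p-values measure the spread between these libraries, which may be technical. All are bulk samples of many cells, in which fewer cells carrying an mRNA and less of it per cell cannot be told apart.

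Actin polymerises into the filaments that shape and move a cell, and heterodimers of alpha- and beta-tubulin polymerise into microtubules, which form the mitotic spindle. Gamma-tubulin does not build the microtubule wall but starts new microtubules at the centrosome. Cytoplasmic actins and the tubulin isotypes are each encoded by several genes whose proteins are nearly identical in sequence. Tubulin mRNAs are also known for autoregulation, in which an excess of free tubulin leads to decay of the mRNA while it is being translated.

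The RIP libraries held 25655455 and 25998032 fragments on genes and the input libraries 18131602 and 17310753. SIRT7 itself had 875555 and 871168 fragments in the RIP libraries, against 27016 and 26126 in the input libraries, a 37.4-fold difference that the transgene and the endogenous gene share. The 10 actin and tubulin genes took 0.763% and 0.790% of all fragments in the RIP libraries, against 0.688% and 0.759% in the input libraries. Of 6 intermediate filament genes known from this line (VIM, KRT8, KRT18, NEFL, NEFM and INA), all were expressed and tested. Of 10 marker genes of other cell types 3 were tested, CD3E and HBB were at 0 in every library, and the summed level of the list was 2.49 and 2.99 FPKM in RIP against 3.87 and 3.04 FPKM in input.

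Of the 10 genes, 8 were higher in RIP than in input and none was lower, while ACTB and TUBB6 did not pass the test. TUBB2B differed most (2.65-fold), TUBA1C, TUBA1B, ACTG1 and TUBA1A followed at 2.31-fold to 1.83-fold, and TUBB, TUBB2A and TUBG1 lay between 1.41-fold and 1.59-fold. The test was edgeR's quasi-likelihood test on TMM-scaled fragment counts with Benjamini-Hochberg adjustment over all 14555 genes at 0.05. By this rule 38.0% of all tested genes were higher in RIP and 39.7% lower. An increase of at least 2-fold was found for 3 of the 10 genes (TUBA1B, TUBA1C and TUBB2B), against 17.5% of all tested genes. The median log2 fold change was 0.77 over the 10 genes and -0.030 over all tested genes. In 9 of the 10 genes both RIP libraries lay above both input libraries, as they did in 43.7% of tested genes, and in ACTB the groups overlapped.

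These directions hold relative to the other mRNAs on the TMM scale. With plain library totals the median of all tested genes was at -0.76, 17.0% were higher and 65.5% lower, and the 10 genes divided into 4 higher (ACTG1, TUBA1B, TUBA1C and TUBB2B), 3 lower (ACTB, TUBB6 and TUBG1) and 3 past neither side. The median of the 10 genes was then 0.037. Its distance from the median of all genes was 0.80 on both scales, which a scaling of whole libraries leaves nearly unchanged by construction. With the length trend described below taken out, that distance was 0.42. As a share of the summed FPKM of all genes, in which short mRNAs weigh more, the 10 genes together held 0.401% and 0.414% in RIP against 0.611% and 0.641% in input. On that scale, added after the data were seen, all 10 lay below 0 (log2 ratios from -1.37 to -0.060), with 91.0% of tested genes below 0 and a median of -1.49.

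Levels of the 10 genes were compared per length, in FPKM (the authors' fragment counts scaled by transcript length and library depth). In RIP the order was ACTG1, TUBA1B, TUBB, ACTB, TUBA1C, TUBG1, TUBA1A, TUBB2B, TUBB6 and TUBB2A, with mean levels from 1819 to 19.9 FPKM and no overlap between neighbours. In input ACTG1 was also highest (909.5 FPKM) and TUBB2A lowest (12.4 FPKM). TUBA1B, ACTB and TUBB averaged 614.2, 563.6 and 552.3 FPKM in input and overlapped as neighbours in that order. Within each input library TUBA1B was above both others, while ACTB was below TUBB in the first and above it in the second. ACTG1 ranked 121st of all tested genes by mean FPKM in RIP and 90th in input, and ACTB 250th in RIP and 127th in input. All but TUBA1A, TUBB2A and TUBB2B stood lower in the RIP order of all genes than in the input order.

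**Figure D1:**
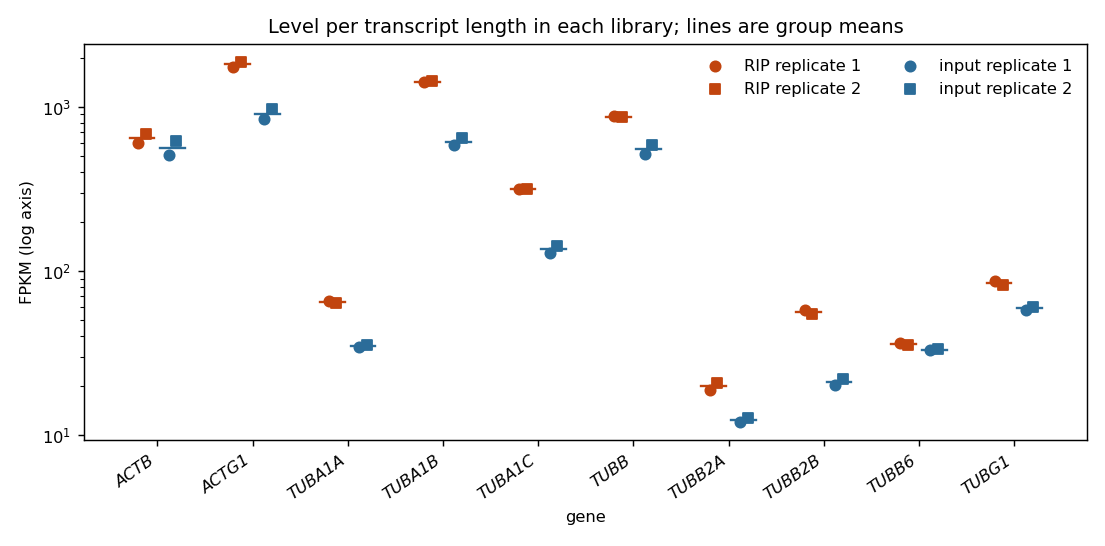
FPKM (log axis) of each of the 10 genes in the 2 RIP and the 2 input libraries, with lines at the group means. The RIP points lie above the input points in every gene except ACTB, where the second input library (617 FPKM) exceeds the first RIP library (606 FPKM).

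The actins differed from each other. ACTG1, which encodes cytoplasmic gamma-actin, had 3349 and 3581 CPM (depth-scaled fragments, on TMM library sizes) in RIP, against 1638 and 1860 CPM in input. Both RIP libraries were well above both input libraries (log2 fold change 0.99, SE 0.076, edgeR adjusted p = 8.148e-09). ACTB, which encodes beta-actin and often serves as a loading control, had 1043 and 1175 CPM in RIP, against 898.1 and 1067 CPM in input. The groups overlapped, and the 1.13-fold difference (95% interval 0.994 to 1.28) did not pass the test (edgeR adjusted p = 0.07486). ACTB was called without the second input library (log2 fold change 0.32, adjusted p = 1.581e-05). Without the first input library it was at 0.057 (adjusted p = 0.3538), and without the second RIP library at 0.086 (adjusted p = 0.5809).

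ACTG1 made up 74.4% and 73.4% of the summed actin FPKM in the RIP libraries, against 62.3% and 61.2% in the input libraries. This share does not depend on how the libraries were scaled. The means were 73.9% ± 0.702 in RIP and 61.8% ± 0.767 in input (SD, n = 2 each), 12.1 points higher in RIP. With 2 libraries on each side an exact permutation test (two-sided) has a smallest possible p of 0.33, which is the value found. In fragments the share was 75.8% ± 0.676 in RIP and 64.1% ± 0.733 in input (SD, n = 2 each). The 95% Wilson interval was 76.0% to 76.5% in the first RIP library and 64.2% to 65.0% in the first input library, and it covers counting error only.

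All 3 alpha-tubulin genes were higher in RIP, TUBA1A by less than the others. TUBA1B, the main alpha-tubulin gene of these cells, had 2349 and 2385 CPM in RIP, against 988.1 and 1073 CPM in input (2.30-fold, log2 fold change 1.20, SE 0.070, edgeR adjusted p = 2.943e-10). TUBA1C had 459.8 and 459.2 CPM in RIP, against 190.4 and 206.7 CPM in input (2.31-fold, adjusted p = 2.662e-10). TUBA1A, whose product is the major alpha-tubulin of neurons, had 121.2 and 118.3 CPM in RIP, against 65.1 and 65.8 CPM in input (1.83-fold, adjusted p = 1.241e-08). The 95% interval of the log2 fold change was 0.72 to 1.02 for TUBA1A, below those of TUBA1B (1.05 to 1.35) and TUBA1C (1.06 to 1.36). These intervals are not corrected for length. With the length trend described below taken out, TUBA1A (0.38) stood closer to TUBA1C (0.49), with TUBA1B at 0.60 (SE 0.070 each). With library totals TUBA1A was at 0.14 and lost its call (adjusted p = 0.06907).

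Within the family TUBA1B held 78.7% and 79.0% of the FPKM in RIP, against 78.1% and 78.4% in input. TUBA1C held 17.7% and 17.4% in RIP, against 17.3% and 17.3% in input. TUBA1A held 3.65% and 3.53% in RIP, against 4.62% and 4.31% in input. The groups did not overlap for any of the 3 alpha-tubulin genes. The ratio of TUBA1B to TUBA1A was 21.6 and 22.4 in RIP, against 16.9 and 18.2 in input.

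The beta-tubulins split. TUBB, the major beta-tubulin of dividing cells, had 2140 and 2115 CPM in RIP, against 1295 and 1433 CPM in input (1.56-fold, log2 fold change 0.64, SE 0.071, edgeR adjusted p = 5.98e-07). TUBB2B had 112.7 and 105.8 CPM in RIP, against 39.9 and 42.6 CPM in input, the largest fold among the 10 genes (2.65-fold, log2 fold change 1.41, SE 0.076, adjusted p = 1.241e-10). Its neighbour and near copy TUBB2A had 28.6 and 31.7 CPM in RIP, against 18.6 and 19.5 CPM in input (1.59-fold, log2 fold change 0.66, SE 0.095, adjusted p = 1.028e-05). TUBB6, a beta-tubulin gene at a lower level than TUBB in these cells, had 62.8 and 61.2 CPM in RIP, against 58.5 and 57.8 CPM in input. These ranges did not overlap, but the 1.07-fold difference (95% interval 0.957 to 1.19) did not pass the test (adjusted p = 0.2587).

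In shares of the FPKM of these 4 genes, TUBB2B held 5.85% and 5.57% in RIP, against 3.43% and 3.34% in input. TUBB6 held 3.68% and 3.63% in RIP, against 5.67% and 5.11% in input. TUBB itself held 88.6% and 88.7% in RIP, against 88.8% and 89.6% in input. TUBB2B and TUBB6 therefore changed places in the order of levels, with 56.2 against 35.9 FPKM in RIP and 21.0 against 33.2 FPKM in input. The ratio of TUBB2B to TUBB2A was 3.07 and 2.61 in RIP, against 1.67 and 1.71 in input. TUBB4B, a further abundant beta-tubulin gene outside the 10, rose 1.75-fold (386 ± 4.21 CPM in RIP and 220 ± 2.31 CPM in input, SD, n = 2 each, adjusted p = 1.623e-08), but with the length trend taken out (0.11) and with library totals (0.081) it did not pass the threshold. The summed FPKM of the 3 alpha-tubulin genes was also set over that of all 9 beta-tubulin genes in the table. This ratio, which leaves out the other alpha-tubulin genes, was 1.415 and 1.453 in RIP, against 1.009 and 1.015 in input. This ratio was not corrected for the fall of fold changes with length described below. The 3 alpha-tubulin genes were 0.50 to 0.64 times as long as the median tested gene and TUBB 0.85 times.

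**Figure D2:**
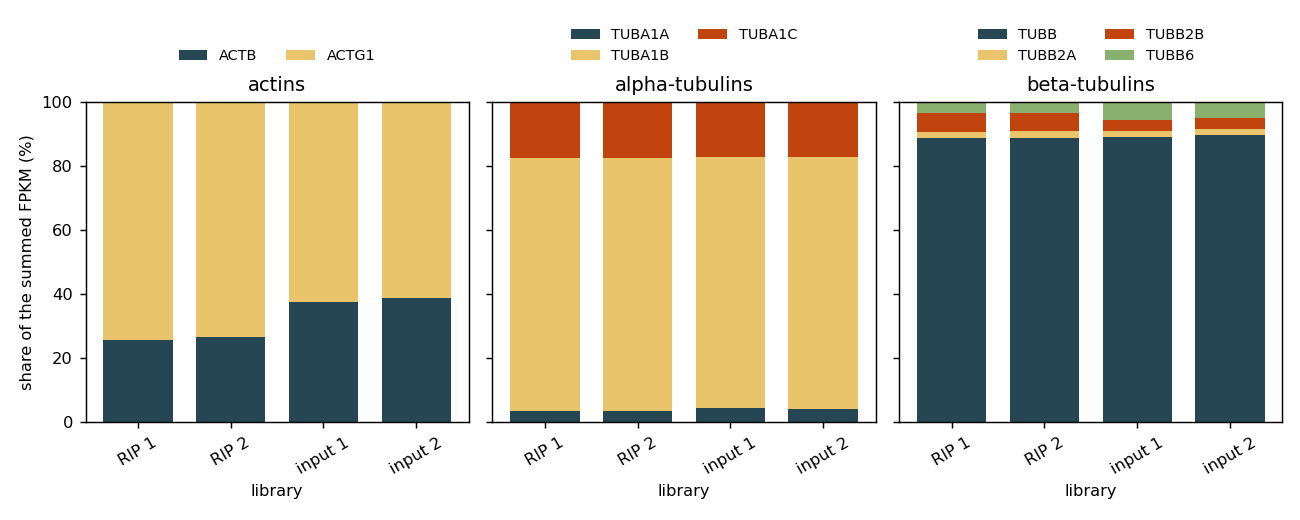
Share of the summed FPKM of each family held by its genes (stacked bars, in percent) in the 2 RIP and the 2 input libraries. ACTG1 takes 74.4% and 73.4% of the actin FPKM in RIP against 62.3% and 61.2% in input, while TUBA1A takes 3.65% and 3.53% of the alpha-tubulin FPKM in RIP against 4.62% and 4.31% in input.

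TUBG1, the gamma-tubulin gene, had 163.0 and 153.4 CPM in RIP, against 110.3 and 114.0 CPM in input (1.41-fold, log2 fold change 0.50, SE 0.070, edgeR adjusted p = 8.2e-06). Its neighbour TUBG2, the second gamma-tubulin gene, had 4.15 FPKM in RIP and 3.98 FPKM in input (log2 fold change 0.044, adjusted p = 0.8066). TUBG2 was lower with the length trend described below taken out (-0.51, edgeR adjusted p = 0.009189) and with library totals (-0.69, adjusted p = 0.001026). Both RIP libraries of TUBG1 were above both input libraries.

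Fold changes in this experiment fell with mRNA length (across the 14555 tested genes, Spearman's rho was -0.60, a description since genes of the same libraries are not independent). Effective length was read from the table as scaled fragments over FPKM. The 10 genes were 0.50 to 0.85 times as long as the median tested gene, where the trend over all genes ran from 0.72 at TUBA1C, the shortest, to 0.23 at TUBB, the longest. Among the 10 genes themselves there was no such order (Spearman rho = -0.042, n = 10, as a description, since they share the same 4 libraries). TUBB2B and TUBB6, of relative length 0.68 and 0.60, lay on opposite sides of the trend.

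**Figure D3:**
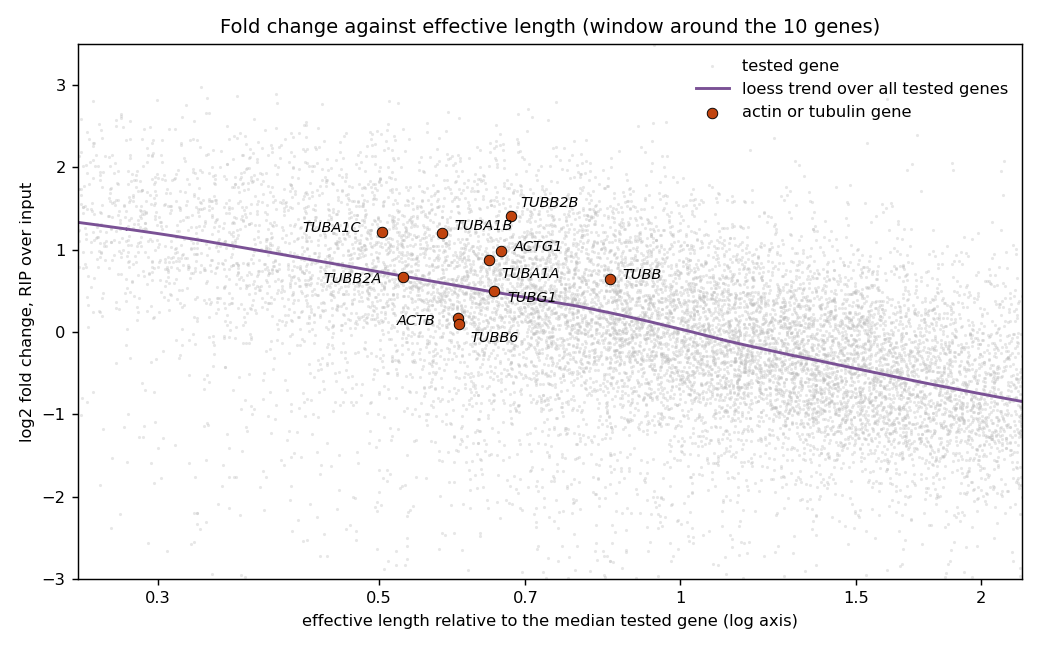
Log2 fold change of RIP over input against effective length relative to the median tested gene (log axis). Grey points are tested genes, the line is the loess trend, and the 10 named points show TUBB2B at 1.41 above the trend and ACTB at 0.17 and TUBB6 at 0.093 below it.

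With the length trend taken out, 6 of the 10 genes were higher and 2 lower, against 33.7% higher and 34.5% lower among all tested genes. TUBB2B was at 0.96 on the log2 scale (edgeR adjusted p = 3.092e-08), TUBA1B at 0.60, ACTG1 at 0.52, TUBA1C at 0.49, TUBB at 0.41 and TUBA1A at 0.38, all past the threshold. TUBB2A at -0.015 (adjusted p = 0.8993) and TUBG1 at 0.013 (adjusted p = 0.8827) lost their calls. ACTB fell by 0.39 (adjusted p = 0.0009345) and TUBB6 fell by 0.47 (adjusted p = 4.508e-05). Among the 10 genes TUBB2B stood highest and TUBB6 lowest on the TMM scale, after length correction and with library totals.

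**Figure D4:**
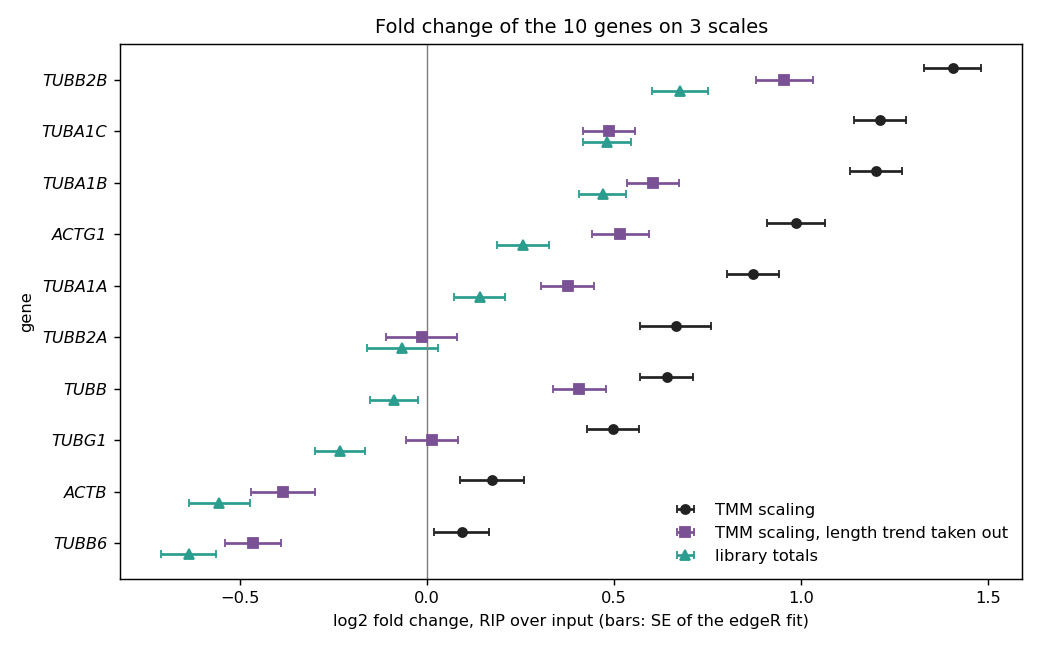
Log2 fold change of RIP over input for each of the 10 genes with TMM scaling, with the length trend taken out and with library totals (bars, SE of the edgeR fit). TUBB2B, the alpha-tubulins and ACTG1 are above 0 on all 3 scales. ACTB, TUBB6 and, by a small margin, TUBB2A turn from above 0 with TMM scaling to below 0 on the other scales.

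Near-identical copies limit how far single members can be told apart, because the authors' handling of reads with several positions is not given in the sources used here. The RefSeq gene table of GRCh38.p14 names 14 pseudogenes of ACTB, 21 of ACTG1, 17 of alpha-tubulins and 38 of beta-tubulins. Of these the deposited table lists ACTG1P4, TUBA3FP and TUBBP5. TUBBP5 had 391 and 319 fragments in RIP, against 238 and 205 in input, and the others had at most 60 in any library. In the same RefSeq table TUBA1B, TUBA1A and TUBA1C are consecutive protein-coding genes, as are TUBB2A and TUBB2B, and TUBG1 is followed by TUBG2. TUBB6 overlaps AFG3L2 there, and whether the authors counted by strand is not given. Summed before any comparison, the alpha-tubulin genes were at a log2 ratio of 1.19, the actin genes at 0.74 and the 4 beta-tubulin genes at 0.65. These are values with no test and no length correction.

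Among tested genes outside the 10, the nearest in level over the 4 libraries (Euclidean distance of log2(FPKM + 1)) was ENO1 for ACTG1 (distance 0.12), RPL15 for TUBA1B (0.18), HSD17B10 for TUBA1C (0.11), SRP19 for TUBA1A (0.082), ATF4 for TUBB (0.21) and NIPSNAP1 for TUBG1 (0.080). For TUBB2A it was FAM120AOS (0.046), for TUBB2B CCDC23 (0.070) and for TUBB6 PSMD11 (0.054). ACTB had the most distant nearest gene, HSPA8, at 0.42. HSPA8 had 733.8 and 767.5 FPKM in RIP, against 474.8 and 522.8 FPKM in input, a wider gap than that of ACTB.

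The other tubulin and actin genes were mostly low. Of 15 further tubulin genes listed, 11 were tested, with 2 higher, 2 lower and 7 past neither side. Of all tested genes 38.0% were higher and 39.7% lower. After length correction 1 of the 11 was higher and 4 were lower, against 33.7% and 34.5% of all tested genes. With library totals 1 was higher and 6 were lower, against 17.0% and 65.5%. The neuronal isotype TUBB3 rose 2.43-fold (26.3 ± 3.44 CPM in RIP and 10.8 ± 0.815 CPM in input, SD, n = 2 each), and TUBE1, which encodes epsilon-tubulin of the centriole, fell by 0.33 on the log2 scale. The other lower gene of the main test was TUBA3D, with 0.049 FPKM in RIP and 0.31 FPKM in input, named after its value was seen. TUBA3C, TUBA4B and TUBAL3 were at 0 in every library. Of 7 further actin genes 2 were tested. The smooth muscle actin gene ACTA2 rose 1.44-fold at 5.43 FPKM in RIP and 3.83 FPKM in input, whereas ACTA1 of skeletal muscle had 1 and 1 fragments in RIP, against 11 and 11 in input (edgeR adjusted p = 0.00207). ACTA2 turned to -0.13 after length correction and to -0.20 with library totals, neither past the threshold.

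Genes whose products fold tubulin and actin were mostly higher in RIP: 18 of 23 were higher, 1 was lower, and the median log2 fold change was 0.58, where 38.0% of all tested genes were higher and 39.7% lower. The tubulin cofactor gene TBCB rose 2.90-fold, ARL2, a small GTPase of the tubulin cofactor pathway, rose 2.76-fold, and CCT7 of the cytosolic chaperonin rose 1.70-fold. CCT3 was at 0.052 (adjusted p = 0.4787). After length correction 8 of the 23 were higher and 11 lower (median -0.17), against 33.7% and 34.5% of all tested genes, so the excess of higher genes was not seen on that scale. With library totals 6 were higher and 12 lower, against 17.0% and 65.5%. CCT3 fell by 0.35 after length correction and by 0.68 with library totals, where CCT7 at 0.032 (adjusted p = 0.6268) lost its call.

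The gamma-tubulin ring complex, in which gamma-tubulin starts microtubules, had 3 of 9 genes higher and 4 lower (median -0.10), against 38.0% and 39.7% of all tested genes. MZT2B rose 5.97-fold, MZT2A rose 5.76-fold and MZT1 rose 1.49-fold. These 3 genes encode the small MOZART subunits. The genes of the large gamma-tubulin binding proteins TUBGCP3, TUBGCP5 and TUBGCP6 and of NEDD1, which recruits the complex, were the 4 lower ones, with log2 fold changes of -0.48, -0.61, -0.56 and -1.001 (named after their values were seen, as are the following). Neither side of the threshold was passed by the large subunit genes TUBGCP2 (-0.038, adjusted p = 0.6293) and TUBGCP4 (-0.10, adjusted p = 0.3065). After length correction 5 were higher and 2 lower, against 33.7% and 34.5% of all tested genes. MZT2B and MZT2A were then at 1.31 and 0.99, and TUBGCP6 (0.27) and TUBGCP2 (0.41) were among the higher genes. With library totals 2 were higher and 6 lower, against 17.0% and 65.5%, and MZT1 was at -0.16 (edgeR adjusted p = 0.08485).

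Of 16 tested genes for tubulin modification and for the autoregulation of tubulin mRNA, 3 were higher and 7 lower (median -0.11). Over all tested genes 38.0% were higher and 39.7% lower. After length correction 4 of the 16 were higher and 6 lower, against 33.7% and 34.5% of all tested genes. With library totals 2 were higher and 12 lower, against 17.0% and 65.5%. TTLL5, a tubulin polyglutamylase, fell by 1.99 on the log2 scale, CCDC23, the partner protein of the vasohibin tubulin carboxypeptidases now named SVBP, rose 2.70-fold and AGBL5, a deglutamylase, rose 1.58-fold. TTLL12 was at -0.036 (adjusted p = 0.6353). Of the autoregulation genes, TTC5, which recognises nascent tubulin, was at 0.15 (adjusted p = 0.09989), its partner SCAPER fell by 0.72 (adjusted p = 4.037e-05), and CNOT11 of the deadenylase complex was at -0.077 (adjusted p = 0.3849). After length correction TTC5 fell by 0.38 and CNOT11 by 0.29, both past the threshold as with library totals, and SCAPER at -0.15 (adjusted p = 0.2695) lost its call. CCDC23 lost its call after length correction (0.023, adjusted p = 0.8397). AGBL5 (-0.074, adjusted p = 0.3032) lost it with library totals, where TTLL12 fell by 0.77.

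Of 18 microtubule dynamics genes 6 were higher and 9 lower (median -0.14), where all tested genes had 38.0% higher and 39.7% lower. After length correction 6 were higher and 7 lower, against 33.7% and 34.5% of all tested genes. With library totals 2 were higher and 15 lower, against 17.0% and 65.5%. CKAP5, a microtubule polymerase, rose 1.72-fold and STMN1, which binds tubulin dimers, rose 1.43-fold, while MAP1B fell by 1.58 on the log2 scale. With the length trend taken out CKAP5 was at 1.72 (log2), and with library totals at 0.053 (adjusted p = 0.5061). STMN1 turned to -0.24 and -0.21, both past the threshold, and MAP1B was at -0.14 (adjusted p = 0.209) after length correction.

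Among 16 genes for the turnover of actin monomers and filaments, 10 were higher and 2 lower (median 0.68), with 38.0% and 39.7% over all tested genes. After length correction 5 were higher and 3 lower, against 33.7% and 34.5% of all tested genes. With library totals 4 were higher and 7 lower, against 17.0% and 65.5%. PFN1, profilin, had 1525 ± 16.7 CPM in RIP and 460.0 ± 49.8 CPM in input (SD, n = 2 each), a 3.31-fold rise, and TMSB10, a thymosin that holds actin monomers, rose 3.75-fold. After length correction PFN1 was at 0.86 and TMSB10 at 0.12 (adjusted p = 0.147). The 17 actin nucleator genes divided into 7 higher and 10 lower (median -0.41), beside the same 38.0% and 39.7%. They divided into 4 and 10 after length correction and 4 and 11 with library totals, beside the same shares as above. Of the Arp2/3 complex, ARPC1B rose 3.37-fold, ARPC5L 3.34-fold and ARPC3 1.72-fold, and ACTR2 fell by 0.79 on the log2 scale. ARPC3 fell by 0.53 after length correction and lost its call with library totals (0.054, adjusted p = 0.4354). ARPC4 of the same list had a failed status in the authors' table for both RIP libraries.

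Of 18 actin crosslinker and myosin genes 6 were higher and 10 lower (median -0.24), beside the 38.0% and 39.7% of all tested genes. After length correction 7 were higher and 7 lower, where all tested genes had 33.7% and 34.5%. With library totals 3 were higher and 13 lower, where all tested genes had 17.0% and 65.5%. The spectrin genes SPTAN1 and SPTBN1 fell by 3.16 and 2.80 on the log2 scale, and after length correction they stood at -2.08 and -1.54. The myosin light chain gene MYL6 rose 3.07-fold (length-corrected log2 value 0.19) and the filamin gene FLNA 1.64-fold (1.87 after length correction, -0.014 and not called with library totals). Of the actin-related genes of dynactin and of nuclear complexes 3 of 7 were higher and 1 lower (median 0.12), beside the same 38.0% and 39.7%. They gave 2 and 3 after length correction and 1 and 6 with library totals, beside the same shares as above. ACTR1A and ACTR1B of the dynactin filament rose 1.32-fold and 2.10-fold, and ACTR1A was at -0.33, past the threshold, with library totals.

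**Figure D5:**
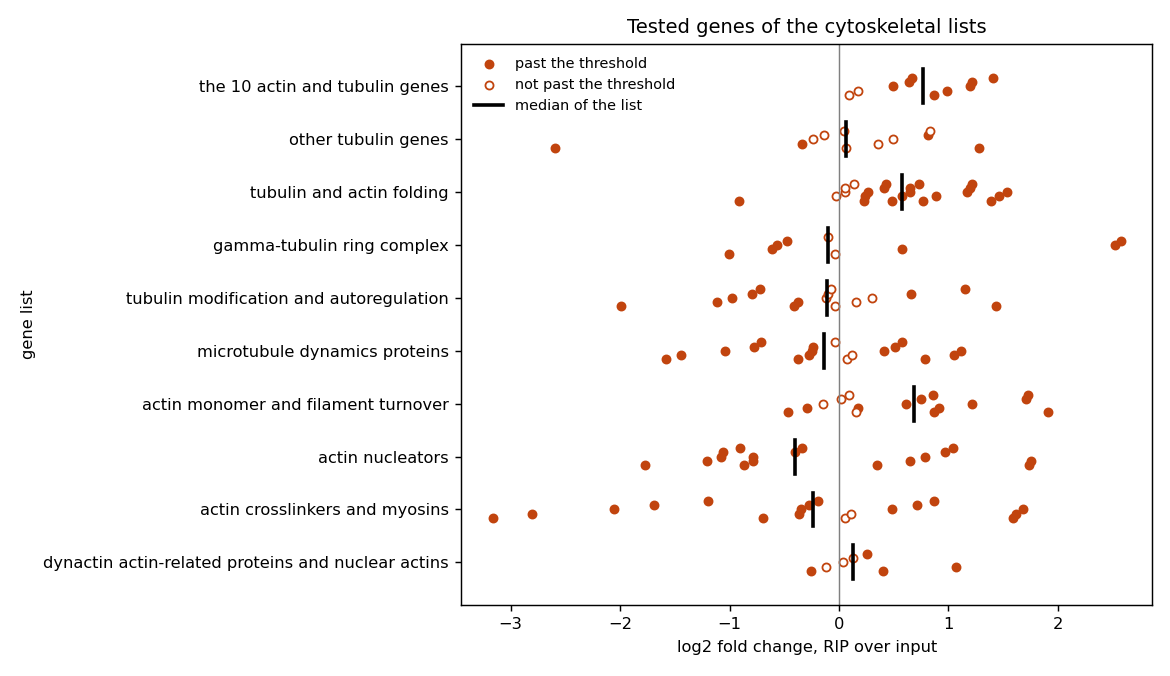
Log2 fold change of RIP over input for the tested genes of the cytoskeletal lists, 1 point a gene (filled, past the threshold of edgeR's adjusted p; open, not past it), with black bars at the list medians. The medians of the 10 actin and tubulin genes (0.77), of actin turnover (0.68) and of folding (0.58) lie right of 0, and those of actin nucleators (-0.41) and crosslinkers (-0.24) left of it.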

How the data were processed

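The submitters' processing notes name the build hg19 and the tools Cuffdiff 2.2.1, TopHat2 2.0.13, Bowtie2 2.2.6 and cutadapt 1.5. The annotation is not given in the sources used here. In the deposited table the expected count of a gene is the authors' fragment estimate (97.94% whole, and whole for all 10 genes), the deposited scaled signal is the same fragments times 1 factor per library (0.8903 to 1.0753), and the deposited FPKM values are per transcript length. The table numbers libraries from 0, so replicate numbers rest on that order. Failed status marked 12 of 94460 entries, none in the 10 genes.

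Counts were rounded. The main test was edgeR 4.0.16 in R 4.3.3 (filterByExpr, TMM factors of 0.7767 and 0.7759 in RIP and 1.298 and 1.278 in input, glmQLFit, glmQLFTest, group as the only term). SE is the log2 fold change over the square root of F. Length was corrected by offsets from a loess trend (span 0.5). Alternatives were DESeq2 1.42.0, limma 3.58.1 on log2(FPKM + 1) and log2(FPKM + 0.1), library totals, no filter, a scaling without the 10 most abundant RIP genes, a replicate block and each library left out. The libraries of RIP and those of input were not copies of each other: their chi-square per gene was 3.40 in RIP and 6.17 in input, and each was kept as 1 replicate. The fits were also run on simulated counts in which a small part of the genes changed by 1.5-fold or 2-fold, up and down alike. They recovered 70% to 90% of each kind of change without a trend. With a length trend simulated and taken out it was 66% to 92%. With so few genes changed, the simulation could not check the scaling between libraries.

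The genes and lists were chosen with earlier results of these data known. Named are the 10 genes, the 2 most abundant and the 2 lowest-p tested genes of each of 10 cytoskeletal lists, and the nearest gene in level to each of the 10. Of these, 1 gene is not reported here.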

Additional observations from a re-analysis of the deposited data

How the results depend on the processing

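Of 129 repeats over the 10 genes, 117 kept both direction and side of the threshold, as did 363 of 384 over the other named genes. Most of the 129 were the log2 fold change of a gene under an alternative. The share of summed FPKM, on which all 10 lay below 0, was not among them. All 8 reversals among the 10 genes came with library totals or with the length trend taken out. With library totals ACTB (-0.56), TUBB (-0.089), TUBB2A (-0.066), TUBB6 (-0.64) and TUBG1 (-0.23) turned below 0, as did ACTA2 (-0.20), CCT3 (-0.68), MZT1 (-0.16), AGBL5 (-0.074), STMN1 (-0.21), FLNA (-0.014) and ACTR1A (-0.33). With the length trend taken out ACTB (-0.39), TUBB2A (-0.015), TUBB6 (-0.47), ACTA2 (-0.13), CCT3 (-0.35), STMN1 (-0.24) and ARPC3 (-0.53) turned below 0 and TTLL12 (0.15) above it. Library totals put the median of all tested genes at -0.76, against -0.030 with TMM scaling, and which scale is closer to the truth was not tested.

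Of the 10 genes, 8 were higher and 0 lower in the main test, 4 and 3 with library totals, and 6 and 2 with the length trend taken out, and 3 were at least 2-fold higher. Over all genes 5531 were higher and 5783 lower, and 2479 and 9539 with library totals. As a share of the summed FPKM of all genes, an alternative chosen after seeing the data, the log2 ratio of the 10 genes' sum was -0.62 in place of 0.86. RIP minus input, the share of TUBB was -0.60 points among 4 beta-tubulin genes and -2.17 points among all 9, also added after seeing the data; the cause was not tested.

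The labels number replicates 1 and 2 in both groups, but nothing pairs them (correlation of deviations 0.041 over 14555 genes). With the replicate block 9 of the 10 genes were higher (38.3% of all tested genes), ACTB among them (log2 fold change 0.18, adjusted p = 0.01574). The depth bounds counting error only, and 2 libraries a group limit the rest.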
